A study of Mus musculus with 6 samples.

Results

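Potassium channel genes were examined in the whole brain of mouse embryos at stage E16.5. They were chosen by name alone, as every gene whose symbol is Kcn followed by the letter of a pore-forming family and digits. The rule found 76 genes of 53801 in the table, in 15 families, all of them protein-coding. The families were Kcna (8 genes), Kcnb (2), Kcnc (4), Kcnd (3), Kcnf (1), Kcng (4), Kcnh (8), Kcnj (15), Kcnk (14), Kcnn (4), Kcnq (5), Kcns (3), Kcnt (2), Kcnu (1) and Kcnv (2). RNA-seq had been made from 3 Bahd1-KO embryos (genotype Bahd1-/-) and 3 Bahd1-WT embryos (genotype Bahd1+/+) of the C57BL/6 strain. The labels name no other allele and no agent in either group. The knockout affects every cell of the embryo, not a chosen brain cell type, and knockout animals come from crosses of heterozygous parents. BAHD1 is a scaffold protein of complexes that keep chromatin in a repressed state, and the comparison asked whether its absence changed transcript levels before birth. The labels call the embryos biological replicates, and each library came from the whole brain of 1 embryo.

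A potassium channel lets potassium ions leave or enter the cell through a pore that rejects sodium, and so sets the resting potential and ends each action potential. Voltage-gated channels open on depolarization, inward rectifiers hold the membrane near rest and clear potassium around neurons, tandem-pore channels carry a steady leak, and ion-activated channels respond to conditions inside the cell such as calcium, sodium or pH. In a brain of this age neurons are only beginning to fire, radial glia are still present and astrocytes are few.

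The ion selection is made by a short loop in the pore, the selectivity filter, in which a tyrosine or a phenylalanine stands between a pair of glycines. The coding stretches around it are shown because this loop is what the 76 genes share beyond their names. The letters are 5′ to 3′ from GENCODE M21 transcripts of the GRCm38 assembly, on the coding strand, with the 3 filter codons in capitals.
Kcnd2: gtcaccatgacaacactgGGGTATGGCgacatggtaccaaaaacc
Kcna1: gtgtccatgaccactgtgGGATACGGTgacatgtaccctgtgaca
Kcnj15: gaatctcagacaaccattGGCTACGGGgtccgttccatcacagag
Kcnh2: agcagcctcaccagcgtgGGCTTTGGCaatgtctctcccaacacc
Kcnt1: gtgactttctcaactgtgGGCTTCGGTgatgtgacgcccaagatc
Kcnk2, first pore loop: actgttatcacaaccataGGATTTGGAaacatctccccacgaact
Kcnk2, last pore loop: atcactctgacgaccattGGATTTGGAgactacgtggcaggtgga

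Kcnd2 lies on the forward strand at chr6:21215503-21729805 and Kcnj15 on the forward strand at chr16:95257558-95300260. Kcna1 lies on the reverse strand at chr6:126640397-126646384 and Kcnh2 on the reverse strand at chr5:24319589-24351604. The capitals begin at codon 372 of 630 in Kcnd2, 374 of 495 in Kcna1, 156 of 402 in Kcnj15 and 628 of 1162 in Kcnh2. In Kcnk2 they begin at codons 159 and 268 of 426, since each tandem-pore subunit brings a pair of pore loops. A search of the longest coding sequence of each gene in reading frame, for GGNTATGGN or GGNTACGGN (the tyrosine form) and GGNTTTGGN or GGNTTCGGN (the phenylalanine form), found a match in 76 of 76 potassium channel genes (100%). Among all 21514 protein-coding genes 13.4% held a match. The tyrosine form alone stood in 50 genes, the phenylalanine form alone in 15, and both in 11, of which 8 were tandem-pore genes. All 8 Kcnh genes, both Kcnt genes, Kcnu1 and the ATP-sensitive rectifier genes Kcnj8 and Kcnj11 held the phenylalanine form. A match describes letters only, and some second matches may lie outside the pore.

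The libraries held from 61724000 to 91782802 counts each. Bahd1 checked the genotypes: it had 2, 10 and 6 counts in Bahd1-KO replicates 1 to 3 and 1971, 3102 and 3470 in the Bahd1-WT replicates, and was lower in Bahd1-KO by -8.40 on the log2 scale (edgeR, SE 0.61, adjusted p = 0.0462). Bahd1-KO replicate 3 stood apart from the other 5 libraries. Genes of ribosomal RNA took 44.7% of its counts, against 0.249 to 0.614% in the others. Potassium channel genes took 0.217% of its counts from protein-coding genes, against 0.142 to 0.184%. The main genotype results below are therefore given with and without this embryo.

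Levels are given as RPKM, counts per kilobase of exon per 1e6 counts after trimmed mean of M-values (TMM) scaling, so that genes of different length can be set side by side. The median potassium channel gene had a mean of 2.16 RPKM over the 6 embryos. Of the 76 genes, 4 had a mean of at least 10 RPKM, 46 lay from 1 to 10, 16 from 0.1 to 1 and 10 under 0.1. These classes depend in part on Bahd1-KO replicate 3. Without it Kcnj10 had a mean of 6.63 RPKM instead of 10.5. Kcnk2 and Kcnq3 then passed 10 RPKM, with 10.6 and 10.5. The 10 genes with the highest levels held 46.2% of the summed RPKM. In the order of mean levels, 0 of 75 neighbouring pairs had ranges over the embryos that did not overlap, so no neighbour in that order was separated from the next beyond its spread. This also held without Bahd1-KO replicate 3. Among the 62 genes with a mean of at least 1 CPM, 1 count per 1e6 counts on the same scale, the coefficient of variation over the other 5 embryos had a median of 23.5%, from 2.94% for Kcnk2 to 47.1% for Kcng4. The mean for this limit includes Bahd1-KO replicate 3, through which alone Kcng4 passed. Kcng4 had 8.01 CPM there, against means of 0.865 in Bahd1-WT and 0.556 in Bahd1-KO replicates 1 and 2. Kcnh3, with a mean of 4.46 CPM, had a coefficient of 45.4%.

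**Figure D1:**
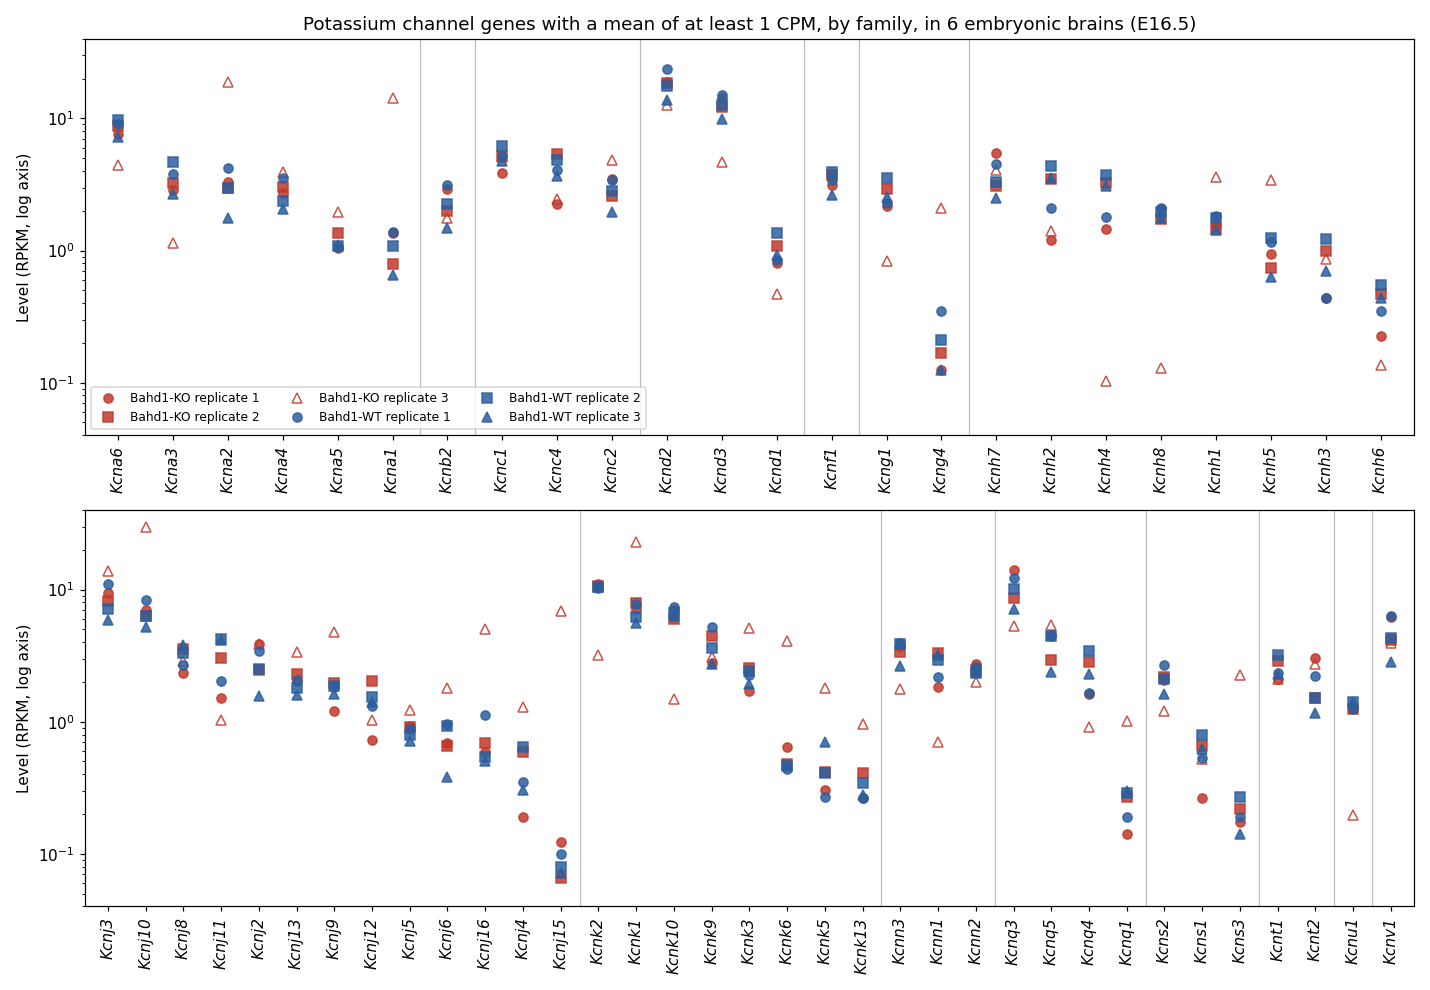
Level of 59 of the 62 potassium channel genes with a mean of at least 1 CPM, 1 point per embryo, grouped by family between grey lines and ordered by the mean of the 5 embryos other than Bahd1-KO replicate 3. The vertical axis is RPKM on a log scale, Bahd1-KO in red and Bahd1-WT in blue, and open triangles mark Bahd1-KO replicate 3, which for Kcnj15 lies at 6.89 RPKM above 5 embryos between 0.0656 and 0.123.

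Among the classical voltage-gated genes, Kcna to Kcnd, 14 of 17 had a mean of at least 1 RPKM. Kcnd2, whose channel carries the fast inactivating A-type current of dendrites, had the highest mean level of all potassium channel genes on this scale. Its level was 23.5, 17.6 and 13.9 RPKM in Bahd1-WT replicates 1 to 3 and 18.7, 18.7 and 12.7 in Bahd1-KO replicates 1 to 3. The groups overlapped, and edgeR gave a log2 fold change of -0.13 (SE 0.29) with an adjusted p of 0.879. Kcnd3, a second A-type gene, had 15.1, 12.6 and 9.83 RPKM in Bahd1-WT and 14.3, 12.1 and 4.68 in Bahd1-KO. Its lowest value came from Bahd1-KO replicate 3, and the other 5 overlapped. Kcnd1 stood far below both, with a mean of 0.917 RPKM, or 1.01 without Bahd1-KO replicate 3.

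Kcna6 led the Kcna family with a mean of 7.85 ± 1.92 RPKM (SD, n = 6). Kcna1 and Kcna2, whose channels line axons and hold back repeated firing, were low in 5 embryos and high in 1. Kcna1 had 1.39, 1.08 and 0.652 RPKM in Bahd1-WT and 1.35, 0.79 and 14.2 in Bahd1-KO, and Kcna2 had 4.21, 2.95 and 1.76 RPKM in Bahd1-WT and 3.32, 2.95 and 18.7 in Bahd1-KO. For both, the high value was that of Bahd1-KO replicate 3, and Bahd1-KO replicates 1 and 2 lay within the Bahd1-WT range. Of the Kcnc genes, whose channels close fast and serve high-frequency firing, Kcnc1 had a mean of 5.07 RPKM and Kcnc2 of 3.18.

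Modifier subunits form no channel of their own and change those of the Kcnb family when they assemble with them. Of the 10 genes of Kcnf, Kcng, Kcns and Kcnv, 4 had a mean of at least 1 RPKM: Kcnv1 (4.64), Kcnf1 (3.45), Kcng1 (2.39) and Kcns2 (1.97). Kcns3 and Kcng4 shared the pattern of Kcna1. Kcns3 had 0.191, 0.269 and 0.141 RPKM in Bahd1-WT and 0.174, 0.217 and 2.24 in Bahd1-KO, and Kcng4 had 0.346, 0.212 and 0.125 RPKM in Bahd1-WT and 0.124, 0.168 and 2.1 in Bahd1-KO. Bahd1-KO replicate 3 again held the high value in both.

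All 8 ether-a-go-go genes of the Kcnh family had a mean of at least 1 CPM, and Kcnh7 led with 3.83 RPKM. Kcnh2, known for repolarizing the heart, had 2.09, 4.36 and 3.55 RPKM in Bahd1-WT and 1.20, 3.48 and 1.41 in Bahd1-KO. Its values overlapped between genotypes (log2 fold change -0.72, SE 0.50, adjusted p = 0.696, edgeR). Without Bahd1-KO replicate 3 the log2 fold change of Kcnh2 was -0.51 (SE 0.49). Kcnh4 and Kcnh8 were near 0 in 1 library. Kcnh4 had 1.79, 3.74 and 3.06 RPKM in Bahd1-WT and 1.47, 3.26 and 0.103 in Bahd1-KO. Kcnh8 lay between 1.74 and 2.12 RPKM in 5 embryos and at 0.130 in Bahd1-KO replicate 3.

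Several Kcnq genes encode channels of the M-current, a slow brake on firing that acetylcholine releases. Kcnq3, a subunit of these channels, was among the 5 highest genes. It had 12.3, 10.1 and 7.16 RPKM in Bahd1-WT and 14.1, 8.59 and 5.30 in Bahd1-KO. Bahd1-KO replicate 3 was lowest, and the other embryos overlapped between genotypes. Kcnq1, which serves heart and inner ear rather than the M-current, had 0.142 to 0.30 RPKM in 5 embryos and 1.02 in Bahd1-KO replicate 3.

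Of the 15 inward rectifier genes, 10 had a mean of at least 1 RPKM. Kcnj15 and Kcnj16 reached this only through Bahd1-KO replicate 3, with means of 0.0879 and 0.688 RPKM in the other embryos. Kcnj10, the glial rectifier that takes up potassium around neurons, had 8.40, 6.27 and 5.17 RPKM in Bahd1-WT and 6.99, 6.31 and 29.7 in Bahd1-KO. Kcnj16, whose product assembles with that of Kcnj10, had 1.12, 0.542 and 0.501 RPKM in Bahd1-WT and 0.593, 0.686 and 5.06 in Bahd1-KO. Both were high in Bahd1-KO replicate 3 and overlapped between genotypes. Kcnj15, a close relative of Kcnj10, gave the largest contrast between embryos of all potassium channel genes. It had 60, 44 and 46 counts in Bahd1-WT and 51, 35 and 2346 in Bahd1-KO, which made 0.0993, 0.0790 and 0.0721 RPKM in Bahd1-WT and 0.123, 0.0656 and 6.89 in Bahd1-KO. Bahd1-KO replicates 1 and 2 stood on either side of the Bahd1-WT embryos.

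The G-protein-gated rectifiers, which answer to transmitters through G-protein subunits, were led by Kcnj3 with a mean of 9.25 RPKM, ahead of Kcnj9 (2.20), Kcnj5 (0.910) and Kcnj6 (0.902). The ATP-sensitive genes differed in pattern. Kcnj8, typical of pericytes, lay between 2.35 and 3.82 RPKM in all 6 embryos. Kcnj11, the neuronal and pancreatic form, had 2.05, 4.20 and 4.12 RPKM in Bahd1-WT and 1.51, 3.02 and 1.02 in Bahd1-KO. Kcnj11 had the largest negative log2 fold change of the 62 genes with at least 1 CPM, -0.90 (SE 0.50, adjusted p = 0.696, edgeR), with overlapping genotypes. Kcnj13, known from the choroid plexus, had 1.60 to 2.31 RPKM in 5 embryos and 3.37 in Bahd1-KO replicate 3. Of 6 choroid plexus markers 3 lay above and 3 below the others in that embryo, and their summed level was 159 CPM against 293 to 779.

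Of the 14 tandem-pore genes, 6 had a mean of at least 1 RPKM. Kcnk6 reached this only through Bahd1-KO replicate 3, with a mean of 0.497 RPKM in the other embryos. Kcnk2, a leak channel opened by stretch and lipids, was the steadiest of the 62 genes outside Bahd1-KO replicate 3. Its level was 10.3, 10.4 and 10.4 RPKM in Bahd1-WT and 11.1, 10.6 and 3.19 in Bahd1-KO. Its close relative Kcnk10 had 7.38, 6.6 and 6.28 RPKM in Bahd1-WT and 6.98, 5.97 and 1.49 in Bahd1-KO. In both, Bahd1-KO replicate 3 lay below the range of the other 5 embryos. Kcnk1, a weakly conducting leak channel, had the opposite pattern, with 7.74, 6.25 and 5.61 RPKM in Bahd1-WT and 7.07, 7.94 and 22.9 in Bahd1-KO. Kcnk6, a relative of Kcnk1, had 0.435, 0.462 and 0.470 RPKM in Bahd1-WT and 0.643, 0.476 and 4.05 in Bahd1-KO. It is 1 of the 2 potassium channel genes whose genotypes did not overlap, though Bahd1-KO replicate 2 and Bahd1-WT replicate 3 differed only in the third digit. Kcnk13, known from microglia, had 0.265 to 0.411 RPKM in 5 embryos and 0.953 in Bahd1-KO replicate 3.

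Of the 7 ion-activated genes, 6 had a mean of at least 1 RPKM. Kcnn2, of the small-conductance calcium-activated channels that follow a train of action potentials, lay between 2.35 and 2.74 RPKM in these 5 and at 1.99 in Bahd1-KO replicate 3. Kcnn3 led the family with a mean of 3.23 RPKM. The sodium-activated gene Kcnt1 had 2.34, 3.19 and 2.29 RPKM in Bahd1-WT and 2.12, 2.87 and 2.12 in Bahd1-KO, with no library apart. Kcnu1, best known from sperm, was not silent: it had 1.26, 1.42 and 1.41 RPKM in Bahd1-WT and 1.29, 1.24 and 0.198 in Bahd1-KO.

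The 4 genes that this brain hardly transcribes stayed under the minimum of 10 counts summed over the embryos and were not tested. They were Kcnj1, the renal rectifier, with 7 counts in all, Kcna7 and Kcnk7 with 3 each, and Kcna10 with 2. The other 72 were tested between genotypes.

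No potassium channel gene passed an adjusted p of 0.05 in the comparison of Bahd1-KO with Bahd1-WT, in edgeR's quasi-likelihood test or in DESeq2. The lowest adjusted p was 0.696 in edgeR and 0.769 in DESeq2, which gave none for 3 of the genes, Kcnj15, Kcns3 and Kcng4. Over all 24739 genes tested, edgeR called 0.00404% and DESeq2 0.0323%. At an unadjusted p under 0.05 edgeR held 1 of the 72 genes, Kcnj15, where 4.67% of all genes tested did so. DESeq2 held 2, beside 5.12% of all genes. Of the 72 genes, 38 had a higher and 34 a lower fitted level in Bahd1-KO, that is 52.8% higher, beside 53.8% of all genes. After a correction for GC content, chosen after seeing the data, the share was 69.4%, beside 59.0% of all genes. With Bahd1-KO replicate 3 left out of the corrected fit, it was 63.9%, beside 51.1% of all genes. Without the correction and with all embryos, the median log2 fold change was 0.089 for potassium channel genes and 0.060 for all genes. Genotypes did not overlap for 2 of the 72, Kcnk6 and Kcnj5, both higher in Bahd1-KO, while 6.71% of all genes tested did not overlap.

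The largest fitted differences belonged to Kcnj15 with a log2 fold change of 4.82 (SE 1.74), Kcna1 with 2.39 (SE 1.07), Kcns3 with 2.12 (SE 1.02) and Kcnk6 with 1.92 (SE 0.83). Kcng4 (1.81), Kcnj16 (1.55), Kcna2 (1.49), Kcnj10 (1.12) and Kcnk1 (0.95) came next. Each had an adjusted p of 0.696 in edgeR. In all of them the Bahd1-KO mean was carried by replicate 3. Without that embryo the log2 fold changes became 0.15 for Kcnj15, 0.02 for Kcna1, -0.041 for Kcns3, 0.28 for Kcnk6, -0.64 for Kcng4, -0.18 for Kcnj16, 0.061 for Kcna2, -0.0074 for Kcnj10 and 0.19 for Kcnk1. Kcnj5, the second gene whose genotypes did not overlap, had 0.878, 0.796 and 0.718 RPKM in Bahd1-WT and 0.932, 0.907 and 1.23 in Bahd1-KO. In edgeR it had a log2 fold change of 0.36 (SE 0.33) with all embryos, at an adjusted p of 0.719, and 0.19 (SE 0.25) without Bahd1-KO replicate 3.

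Without Bahd1-KO replicate 3, edgeR called none of the 72 genes, with a lowest adjusted p of 0.981 for edgeR, while it called 0.0171% of 23334 genes. None had an unadjusted p under 0.05, where 1.48% of all genes did; the lowest was 0.158 with edgeR, for Kcnk16, a gene with 1 to 9 counts per embryo. DESeq2 without this embryo also had none under 0.05. Genotypes did not overlap for 6 of the 72, beside 10.8% of all genes. These were Kcnk2, Kcnk6, Kcnj5 and Kcnj14, higher in Bahd1-KO, and Kcnu1 and Kcnk16, lower. The direction was higher for 30 and lower for 42, that is 41.7% higher, beside 49.2% of all genes. The sign of 24 of the 72 fold changes turned when the embryo was left out. Among the 62 genes with at least 1 CPM, 8 had an absolute log2 fold change of at least 1 with all embryos and none without Bahd1-KO replicate 3, when 59 of 62 lay under 0.5. For the highest genes the difference between genotypes without that embryo was 0.014 (SE 0.25) for Kcnd2, 0.065 (SE 0.23) for Kcnd3 and 0.053 (SE 0.18) for Kcnk2 on the log2 scale. The genes with the lowest p after Kcnk16 were Kcnj11, Kcnj14, Kcng4 and Kcnk4, with log2 fold changes of -0.61 (SE 0.43), 0.46 (SE 0.33), -0.64 (SE 0.47) and 0.73 (SE 0.57).

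**Figure D2:**
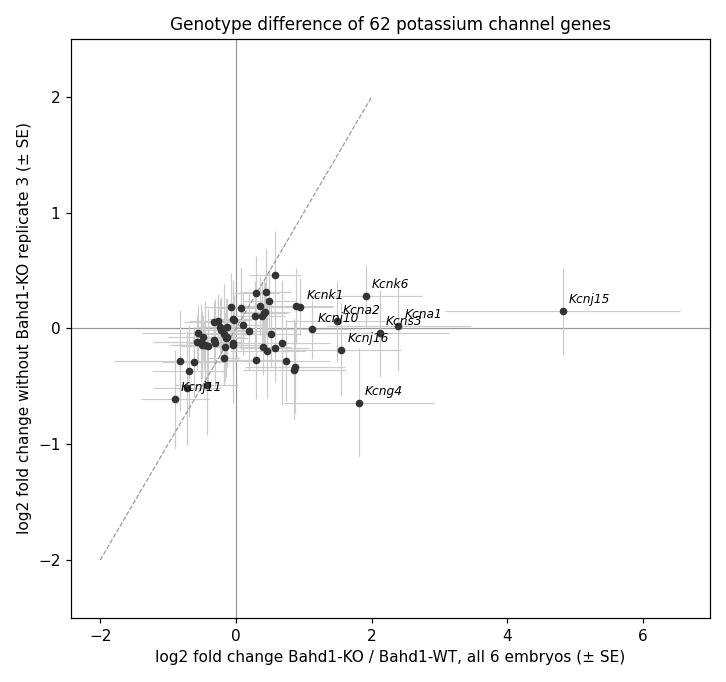
Log2 fold change of Bahd1-KO over Bahd1-WT for 62 potassium channel genes with all 6 embryos (horizontal) and without Bahd1-KO replicate 3 (vertical), with SE bars and the line of equal values dashed. The points spread from -0.90 to 4.82 along the horizontal axis and lie between -0.64 and 0.47 on the vertical axis.

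Bahd1-KO replicate 3 lay above all other embryos for 29 of the 72 genes (40.3%, beside 38.1% of all genes) and below all others for 22 (30.6%, beside 36%). With total counts as the scale, which the ribosomal RNA of this library enlarges, the counts were 20 above and 35 below. It was at least 2-fold above the mean of the others for 21 of the 72 (29.2%, beside 28.1% of all genes) and at least 2-fold below for 16 (22.2%, beside 24.7%). The shares differed more among genes with a mean of at least 1 CPM. At that level the embryo lay above all others for 41.9% of potassium channel genes, beside 31.3% of all genes. It lay below all others for 32.3%, beside 45.5%. At least 2-fold above the mean were 30.6%, beside 18.2%, and at least 2-fold below 24.2%, beside 25.5%. The highest ratios were 78.4-fold for Kcnj15, 13.5-fold for Kcna1, 11.3-fold for Kcns3, 10.8-fold for Kcng4, 8.14-fold for Kcnk6 and 7.35-fold for Kcnj16. The lowest were those of Kcnh4, 25.8-fold below the mean of the others, Kcnh8 (14.8-fold), Kcnu1 (6.67-fold), Kcnk10 (4.45-fold) and Kcnn1 (3.82-fold).

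Families divided in this embryo. Inward rectifiers lay above the other 5 for 9 of 14 genes and below for 1, and their summed level was 76.9 RPKM against 27.3 to 36.5. With total counts as the scale, 6 lay above and 4 below. All 3 Kcnd genes lay below the others, with a summed level of 17.9 RPKM against 24.6 to 39.5, and Kcnd1, Kcnd2 and Kcnd3 stayed below under total counts, while upper-quartile scaling left 2 below. The summed level was 17.3 RPKM against 24.2 to 34.5 for Kcnq genes, 4.55 against 8.28 to 9.20 for Kcnn genes, and 44.4 against 15.5 to 23.1 for Kcna genes. Families also divided within: Kcna1, Kcna2, Kcna4 and Kcna5 lay above and Kcna3 and Kcna6 below.

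**Figure D3:**
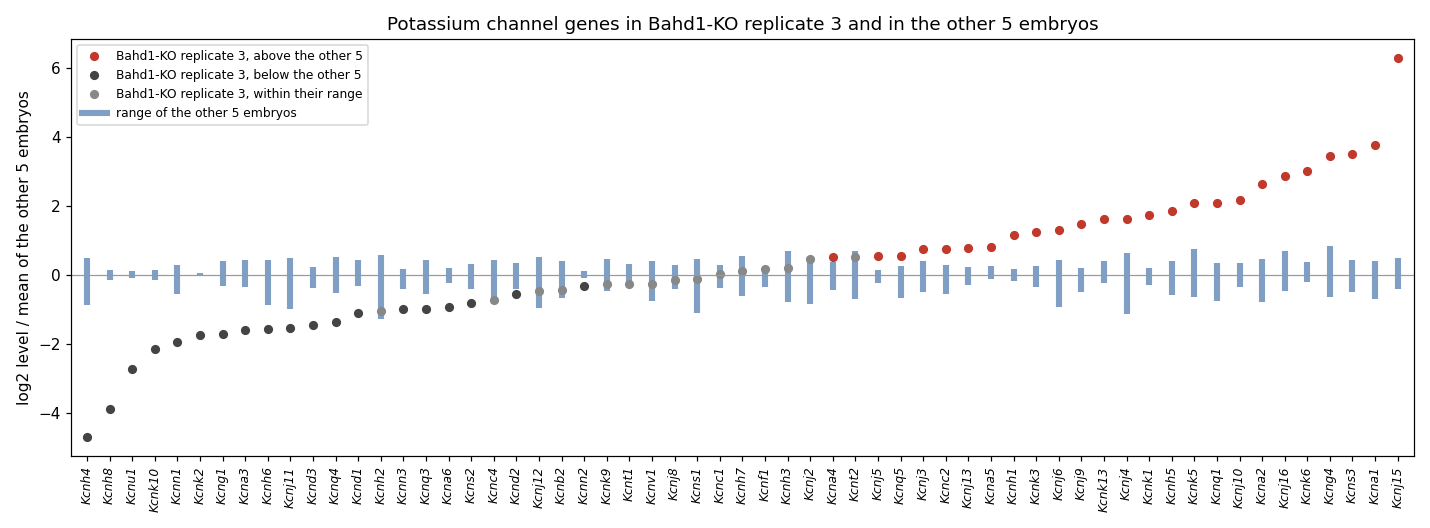
Level of the same 59 potassium channel genes in Bahd1-KO replicate 3 relative to the mean of the other 5 embryos, on a log2 scale, ordered from lowest to highest. Points are this embryo (red above, dark grey below and light grey within the range of the others) and blue bars are the range of the other 5; Kcnh4 lies at -4.69 and Kcnj15 at 6.29.

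Marker genes of cell types and tissues moved in the same library. The 8 forebrain markers were all below the other embryos, with a summed 103 CPM against 1183 to 1717 CPM. Of 10 neuron markers 5 were below and 1 above, with 2637 CPM against 8327 to 10415. All 6 lung markers lay above, with 1263 CPM against 13.7 to 26.8, as did all 8 of skeletal muscle, with 82.9 against 2.44 to 12.1, all 7 of heart, with 301 against 28.9 to 46.5, and all 6 of meninges and connective tissue, with 2567 against 327 to 434. For astrocytes and radial glia 4 of 6 markers were above and 1, Fabp7, below, with 2275 CPM against 956 to 1381, and for the oligodendrocyte lineage 3 of 6 were above and 2, Olig1 and Olig2, below, with 985 against 147 to 240. Of 11 entries for hindbrain and spinal cord markers 7 were above, with 64.4 CPM against 0.748 to 23.8, and the low end was Bahd1-KO replicate 1. Of 6 microglia markers 5 were above, with 67.4 CPM against 36.3 to 50.1, and of 6 for pericytes and smooth muscle 4 were above, with 512 against 199 to 267. Of these lists no marker was at 0 in all embryos except 1 entry for Hoxd4. The part of these tissues, of the ribosomal RNA and of the genotype in the potassium channel values was not tested. In whole-brain RNA, fewer cells of a type and less RNA per cell cannot be told apart.

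Genes that lie side by side did not always stand on the same side of the other embryos in Bahd1-KO replicate 3. Among the 76 genes, 8 adjacent pairs lie within 150 kb of each other. Kcna1 and Kcna6 are 61.9 kb apart on chromosome 6, and their log2 ratios to the other embryos were 3.76 and -0.94. Kcna5 lies 105 kb from Kcna1, and both lay above the others, with 0.79 and 3.76. Kcna2 and Kcna3 are 63.1 kb apart on chromosome 3, with 2.62 and -1.60. Kcnj16 and Kcnj2 are 38.2 kb apart on chromosome 11, with 2.88 and 0.47, and Kcnj2 lay within the range of the others. Kcnj9 and Kcnj10 are 11.9 kb apart on chromosome 1 and both lay above the others, with 1.48 and 2.16. Bahd1 itself lies on chromosome 2 with 9 potassium channel genes, the nearest of which, Kcna4, is 11.6 Mb away. Kcna4 had 3.56, 2.36 and 2.05 RPKM in Bahd1-WT and 2.73, 3.03 and 3.92 in Bahd1-KO.

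Outside that library, replicates 1 differed from the other embryos in potassium channel genes about as often as in all genes tested. Replicates 1 of both genotypes together lay above the other 3 embryos for 18 of the 72 genes (25.0%, beside 24.9% of all genes) and below for 19 (26.4%, beside 26.7%). Among genes with a mean of at least 1 CPM the shares were 27.4%, beside 30.4%, above and 25.8%, beside 35.4%, below. Kcnt2, of the sodium-activated channels, had a ratio of 1.89 between the mean of replicates 1 and that of the other 3, Kcnh7 had 1.69, Kcnj2, the classical strong rectifier, 1.67 and Kcnv1 1.66. Kcnh2 had 0.433, Kcnh3 0.452, Kcnj11 0.470 and Kcnh4 0.486. These genes differ in base composition. The GC content of the longest transcript was 36.6% for Kcnt2 and 61.3% for Kcnh2. Over the 62 genes with at least 1 CPM, GC content and the log2 ratio had a Pearson correlation of -0.85 and a Spearman correlation of -0.85, and over 14802 genes of at least that level the values were -0.79 and -0.85. The points share the same 5 libraries and are no independent replicates. Genes below in replicates 1 had a median GC content of 57.0% (16 genes) and those above 45.7% (17 genes). The values of Kcnh2 and Kcnj11 given above are lowest in replicate 1 of Bahd1-WT among the Bahd1-WT embryos. The part of GC content in the values of single genes was not tested.

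**Figure D4:**
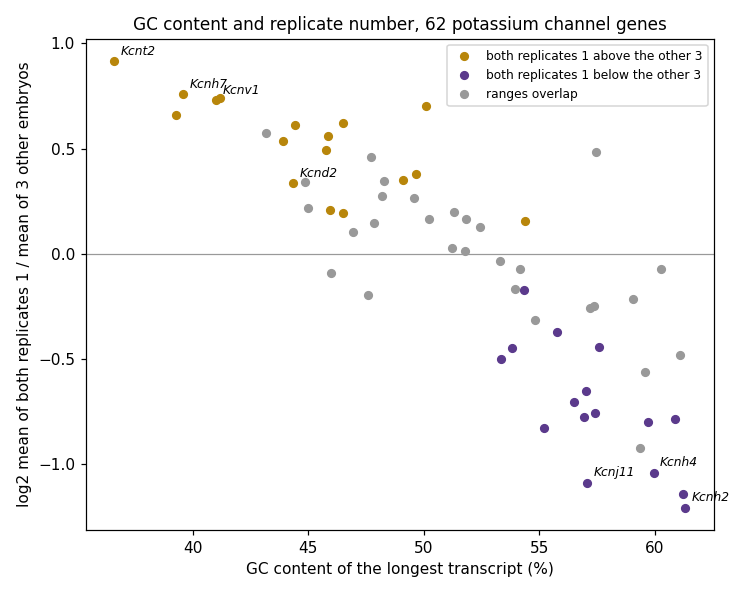
Log2 ratio of the mean of both replicates 1 to the mean of 3 other embryos (Bahd1-KO replicate 2, Bahd1-WT replicates 2 and 3) against the GC content of the longest transcript in percent, for 62 potassium channel genes. Gold points lie above and purple points below all 3 other embryos in both replicates 1, and the ratio falls with GC content (Spearman correlation -0.85).

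Among the other libraries, Bahd1-WT replicate 3 was the lowest of 6 for 24 of the 72 genes (33.3%, beside 16.0% of all genes) and Bahd1-WT replicate 2 the highest for 18 (25.0%, beside 12.6%). Bahd1-KO replicate 1 was lowest for 19 (26.4%, beside 15.8%).

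Auxiliary subunits and related channels outside the name rule were read beside the pore-forming genes. Of 32 listed genes, 31 were in the table and 29 were tested. None passed an adjusted p of 0.05 in either direction in edgeR (lowest adjusted p = 0.696) or in DESeq2, and none had an unadjusted p under 0.05. Their fitted level was higher in Bahd1-KO for 17 and lower for 12, with a median log2 fold change of 0.041. Genotypes did not overlap for 1 of the 29, Kcne3, beside 6.71% of all genes tested. Without Bahd1-KO replicate 3, 14 were higher and 14 lower, with a median of 0.029 and none at an unadjusted p under 0.05 in edgeR. Dpp6, a partner of the Kcnd channels, had the highest mean of the list, 13.7 RPKM. Kcnip1, a calcium-binding partner of the same channels, had 11.2, 9.31 and 8.50 RPKM in Bahd1-WT and 10.5, 10.9 and 2.07 in Bahd1-KO. Kcnma1, the large-conductance calcium-activated channel, had 11.5, 8.43 and 5.51 RPKM in Bahd1-WT and 11.2, 8.21 and 10.6 in Bahd1-KO. Abcc9, the receptor subunit that joins Kcnj8, lay between 3.58 and 6.42 RPKM, and Abcc8, which joins Kcnj11, between 0.438 and 1.84. The pacemaker channels Hcn3 and Hcn4 had 0.308 and 1.04 RPKM in Bahd1-KO replicate 3, against 3.20 to 10.2 and 6.92 to 11.5 in the others. In this embryo 12 of the 29 lay above and 12 below all others.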

How the data were processed

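The deposited values were raw counts of reads for each gene and embryo, made by the authors from stranded libraries of polyadenylated RNA. Per the labels and the study's methods, reads were trimmed with cutadapt (1.11), aligned to GRCm38 with STAR (2.5.0a; TopHat2 is also named, and which made the table is not stated) and counted per Ensembl gene with featureCounts (1.4.6-p3). The counts were not normalized.

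Genes with at least 10 counts in all were tested with edgeR's quasi-likelihood test (4.0.16, R 4.3.3), TMM factors and no term besides genotype, two-sided, with Benjamini-Hochberg adjustment over all genes and a threshold of 0.05. DESeq2 (1.42.0) and voom with quality weights (limma 3.58.1) were alternatives, as were other filters, factors, a replicate block and each embryo left out. The tests were also run on simulated counts. Their spread was taken from the embryos other than Bahd1-KO replicate 3, so recovery at the spread of all embryos was not measured. Exon lengths (union of exons), GC content and coding sequences came from GENCODE M21. The potassium channel genes, the other lists and the tests were chosen with earlier results of these data known. Genes were named by level (highest of each family), lowest p, largest fold change, lowest p without Bahd1-KO replicate 3, and a list of 22 channels with well-known roles; others (such as Kcnj5, Kcnh4, Kcnh8 and Kcnk10, and auxiliary genes) were chosen after their values were seen. Some items are not reported here. Reads of close paralogs can be split between them.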

Additional observations from a re-analysis of the deposited data

How the results depend on the processing

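No potassium channel gene and no auxiliary gene was called under any of the alternatives run, at an adjusted threshold of 0.1 either (potassium channel genes, with all embryos). At an unadjusted p under 0.05 the count of potassium channel genes was 1 (1.39%, beside 4.67% of all genes). It became 4 with no filter beyond 1 count (5.26%, beside 5.955%) and 2 with upper-quartile factors (2.78%, beside 5.76%). DESeq2 gave 2 (2.78%, beside 5.12%), and voom with quality weights gave 2, both lower in Bahd1-KO (2.78%, beside 8.945%). The likelihood ratio test of edgeR gave 4 (5.56%, beside 8.82%). The count was 3 with the GC correction (4.17%, beside 4.14% of all genes) and 0 with DESeq2 when Bahd1-KO replicate 3 was left out. It ran from 0 to 10 when each embryo was left out in turn. Without Bahd1-KO replicate 2 it was 10 (14.1%, beside 20.2% of all genes), and without Bahd1-KO replicate 1 it was 6 (8.33%, beside 10.1%). The cause of these shifts was not tested.

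The 2 genes whose genotypes did not overlap became 1 (1.39%) with DESeq2 size factors (in DESeq2 as well), beside 6.82% of all genes. Total counts also left 1, beside 6.06%. Upper-quartile factors gave 4 (5.56%, beside 6.815%) and the GC correction 5 (6.94%, beside 8.58%). With Bahd1-KO replicate 3 left out the count was 5 in DESeq2 (6.94%, beside 10.9% of all genes) and 8 with the GC correction (11.1%, beside 13.8%). Over the embryos left out in turn it ran from 3 to 19, where fewer values per genotype make a gap easier. It was 19 or 26.8% without Bahd1-KO replicate 2, beside 36.7% of all genes. It was 11 or 15.3% without Bahd1-KO replicate 1, beside 16.1%, or Bahd1-WT replicate 1, beside 30.1%. It was 6 or 8.33% without Bahd1-KO replicate 3, beside 10.8%, or Bahd1-WT replicate 3, beside 11.9%. The median log2 fold change of 0.089 became 0.30 with the GC correction and ran from -0.046 to 0.21 over the embryos left out. Total counts moved the median of all genes from 0.060 to -0.11 and that of potassium channel genes to -0.078; upper-quartile factors moved them to 0.17 and 0.19. The 10 genes of highest level were also the 10 highest with total counts, with the longest transcript as length, in Bahd1-WT alone and without Bahd1-KO replicate 3, and 9 of them were with counts of protein-coding genes. The order among them depended on the length used. With the length of the longest transcript, Kcnd2 had 17.5 RPKM and ranked 2 instead of 1, and Kcnd3 had 15.3 RPKM.

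The replicate block, in which embryos of the same number form pairs, left 0 genes at an unadjusted p under 0.05 and 0 with the GC correction besides. In the latter, genotypes did not overlap for 5 genes (6.94%, beside 8.58% of all genes). With the block but not Bahd1-KO replicate 3 in the fit, 9 genes had an unadjusted p under 0.05 (12.5%, beside 9.3% of all genes), all lower. In that fit Bahd1-WT replicate 3 had no partner of the same number, so it added nothing to the genotype difference. The difference rested on the remaining pairs alone, too few to settle what the 9 genes show. In the same fit 25.0% of the genes were higher beside 46.9% of all genes, and the median was -0.17. Genotypes of 6 did not overlap (8.33%, beside 10.8% of all genes). Same-numbered embryos correlated at 0.12, 0.18 and -0.09 in their deviations from the genotype means. Embryos of unlike number ran from -0.36 to 0.25, the highest being Bahd1-KO replicate 2 with Bahd1-WT replicate 3. The Bahd1-KO mean includes replicate 3, which stood apart, so these values cannot settle whether the numbers mark pairs. The main test used no pairing. The Bahd1 log2 fold change was -8.49 (adjusted p = 0.229, edgeR) with the block and -7.81 (adjusted p = 0.845, edgeR) with block and GC correction, and it ran from -8.78 to -8.01 with an embryo left out, past the threshold only without Bahd1-KO replicate 3.

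Among 14 genes (those of largest fold change, lowest p or highest level, and Kcnj5), none was called under any alternative, and 5 kept their sign under all of them. The others turned mostly without Bahd1-KO replicate 3. Over the embryos left out in turn, log2 fold changes ran from -0.041 to 2.61 for Kcns3, -0.0074 to 1.45 for Kcnj10, -0.18 to 1.995 for Kcnj16, -0.64 to 2.32 for Kcng4, -0.31 to 0.051 for Kcnd2, -0.57 to 0.065 for Kcnd3 and -0.50 to 0.18 for Kcnq3. DESeq2 with Bahd1-KO replicate 3 left out gave -0.042 for Kcns3, -0.0090 for Kcnj10, -0.19 for Kcnj16, -0.65 for Kcng4, 0.012 for Kcnd2, 0.064 for Kcnd3 and 0.19 for Kcnq3. The GC correction with that embryo left out gave -0.063 for Kcns3, -0.00093 for Kcna2, -0.28 for Kcnj16, -0.40 for Kcng4, 0.088 for Kcnd3 and 0.055 for Kcnq3. The replicate block with that embryo left out gave -0.26 for Kcna1, -0.24 for Kcns3, -0.19 for Kcna2, -0.14 for Kcnj10, -0.31 for Kcnj16 and -0.91 for Kcng4. Voom with quality weights gave -0.26 for Kcng4, 0.10 for Kcnd2, 0.075 for Kcnd3 and 0.23 for Kcnq3, and upper-quartile factors gave 0.020 for Kcnq3.

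The GC correction, its combinations and the other scales for the counts by embryo were chosen after seeing the data. The number of embryos, 3 a genotype or 2 when an embryo is left out, limits the precision of every fold change, and the 14 genes under 1 CPM rest on few counts.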
